A study of Canis lupus familiaris with 4 samples.

Results

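The let-7 family was examined in small RNA of extracellular vesicles (EVs) from 2 canine mammary gland tumor cell lines. Its members were the rows of the deposited miRNA table whose names start with cfa-let-7, together with cfa-mir-98, which is 10 of the 673 rows. Of these, 9 were above 0 in at least 1 library and cfa-let-7j was listed at 0 in every library. The rows cfa-let-7a-1 and cfa-let-7a-2 had nearly equal values and are counted once as let-7a where the family is summed, which leaves 8 distinct miRNAs. The CHMp cell line comes from a primary tumor and the CHMm cell line from a metastasis of the same dog, so that each group is a single cell line from 1 animal. Cells were kept without serum while EVs were collected, and no treatment or engineered genetic change is described that separates the groups. Genetic differences between the cell lines themselves were not measured. EVs of CHMp (pTDEs) and of CHMm (mTDEs) were sequenced in 2 libraries each. The study calls the libraries of a cell line biological replicates, without saying in the labels or methods how their cultures were separated, and p-values measure the spread between these libraries of 1 cell line.

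let-7 miRNAs are short RNAs that bind partly matching sites in mRNAs and lower their translation and stability. The members are made from separate precursor genes but share the seed, the stretch near the 5′ end that pairs with targets, and miR-98 belongs to the family by this seed. Known let-7 targets include the RAS genes, MYC and HMGA2, and the RNA-binding protein LIN28 blocks the maturation of let-7 precursors in stem cells and in many tumors. In mammary tissue, let-7 is known for low levels in tumor-initiating cells and for rising levels as cells differentiate.

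Levels are given as CPM (reads of a miRNA scaled to a library total of 1000000), recovered from the deposited score, and since 1 read covers a whole mature miRNA, they are not divided by length. The libraries held 6296386 and 5053607 reads in pTDEs and 3457028 and 2330271 reads in mTDEs. At this depth the 95% Wilson interval of the family's share of a library was at most 0.0405 percentage points to either side, less than the difference between the replicates in that share. Wilson intervals cover counting error only, and they are too narrow where reads are counted repeatedly or where amplified reads are not independent molecules. The least abundant member, let-7c, still had about 285 reads in the shallowest library. cfa-let-7j, at 0 throughout, lies under a limit of 3 reads, which is 0.476 CPM in the deepest and 1.29 CPM in the shallowest library. Epithelial marker miRNAs (7 rows of miR-200a, b and c, miR-141, miR-429, miR-205 and miR-203) summed to 73.9 and 104 CPM in the pTDE libraries and to 23718 and 26413 CPM in the mTDE libraries. cfa-mir-429, cfa-mir-200b, cfa-mir-200a and cfa-mir-141 were at 0 in both pTDE libraries. Mesenchymal miRNAs (4 distinct rows of miR-143, miR-145, miR-199 and miR-214) summed to 589 and 926 CPM in pTDEs and to 81.6 and 762 CPM in mTDEs. Red blood cell miRNAs (3 rows, with cfa-mir-144 at 0 in both cell lines) summed to 233 and 814 CPM in pTDEs and to 624 and 2820 CPM in mTDEs. The liver miRNA cfa-mir-122 was at 158 and 98.5 CPM in pTDEs and at 364 and 570 CPM in mTDEs, higher in both mTDE libraries (log2 fold change -1.86, adjusted p = 0.17 from limma). Their part in the results below was not tested.

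The let-7 family was a major part of the miRNA reads in every library, and its share was larger in pTDEs. The family sum was 15.6% of the library in pTDE replicate 1, 17.9% in pTDE replicate 2, 13.1% in mTDE replicate 1 and 11.2% in mTDE replicate 2. Both pTDE libraries lay above both mTDE libraries. The means were 16.8% ± 1.63 in pTDEs and 12.2% ± 1.39 in mTDEs (SD, n = 2), a ratio of 1.38. No p-value is given for this sum, because it is a score over chosen members. These shares count let-7a once, but the library total they are divided by still holds both let-7a rows and other repeated rows. With identical rows and let-7a counted once in the total as well, the means were 20.2% in pTDEs and 14.4% in mTDEs. This alternative was chosen after seeing the data. If each read of let-7a was divided between its 2 rows rather than counted on both, the rows have to be added, and the shares become 27.8% ± 3.11 and 19.5% ± 1.44. The values do not show which of these was done. The most abundant miRNA outside the family, cfa-mir-21, took 37.8% and 26.5% of the pTDE libraries and 28.0% and 22.5% of the mTDE libraries. With cfa-mir-21 left out of the total, the let-7 share was 25.1% and 24.4% in pTDEs and 18.3% and 14.4% in mTDEs, again without overlap. The ratio of the family sum to cfa-mir-21 did overlap, at 0.413 and 0.675 in pTDEs and 0.469 and 0.498 in mTDEs. The sum also overlapped once let-7a was left out of it, at 56557 and 58552 CPM in pTDEs and 57673 and 38905 CPM in mTDEs. A share of a library cannot tell more let-7 per EV from less of other miRNAs, nor fewer EVs from less RNA per EV.

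let-7a was the most abundant member in every library. Its row cfa-let-7a-1 was at 99532 CPM in pTDE replicate 1, 120336 CPM in pTDE replicate 2, 73563 CPM in mTDE replicate 1 and 72697 CPM in mTDE replicate 2. Both pTDE libraries were higher than both mTDE libraries, and the mTDE replicates were nearly equal. cfa-let-7a-2 was higher than cfa-let-7a-1 in every library, by 0.280% and 0.564% in pTDEs and by 0.713% and 0.817% in mTDEs. One unit of the deposited whole numbers is 0.140% to 0.163%, so that this gap is 2 to 5 units. Among all rows of the table, the let-7a rows ranked 2 and 3 in each library.

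let-7f was the next most abundant member in 3 of the 4 libraries. Replicates 1 and 2 stood at 27426 and 25579 CPM for pTDEs and at 17899 and 17859 CPM for mTDEs. The groups did not overlap, and the lowest pTDE value was 1.43 times the highest mTDE value. For let-7a-1 this gap was 1.35 times.

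let-7g and let-7e also had both pTDE libraries above both mTDE libraries, with smaller gaps. let-7g was at 10889 and 9949 CPM in pTDEs and at 7540 and 8844 CPM in mTDEs, replicate 1 first. For let-7e the values were 1917 and 2700 CPM in pTDEs and 1892 and 1504 CPM in mTDEs. The lowest pTDE value of let-7e was 1.01 times the highest mTDE value, so that its groups only just failed to overlap.

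The other 4 members overlapped between the cell lines, and in each of them mTDE replicate 1 was the highest library and mTDE replicate 2 the lowest. let-7b was at 14733 and 18698 CPM in pTDEs and at 26996 and 9424 CPM in mTDE replicates 1 and 2. miR-98 was at 1090 and 1253 CPM in pTDEs and at 1456 and 1022 CPM in mTDEs. let-7c, the lowest member on average, was at 175 and 165 CPM in pTDEs and at 223 and 122 CPM in mTDEs. In let-7d the mTDE replicates were farthest apart, at 1667 CPM in replicate 1 and 129 CPM in replicate 2, on either side of 328 and 210 CPM in the pTDE replicates.

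**Figure D1:**
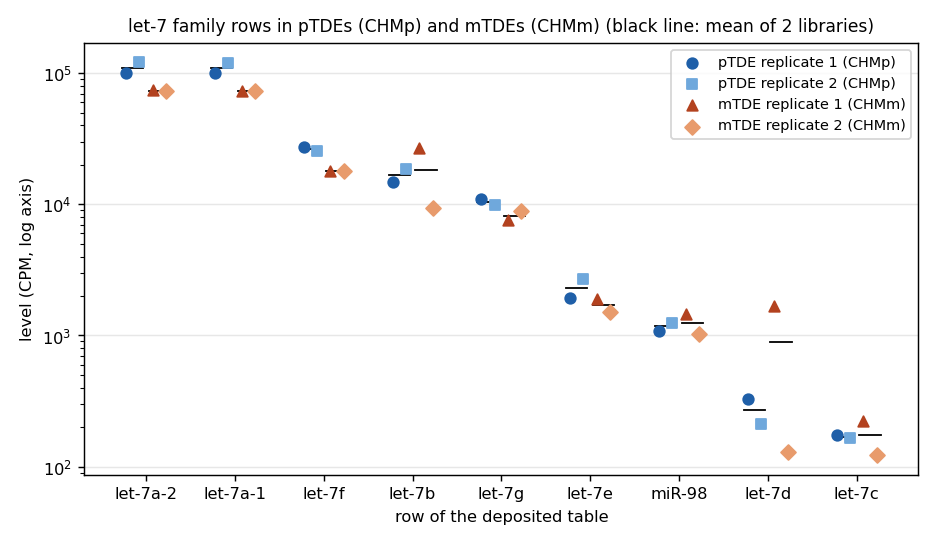
Level in CPM (log axis) of the 9 let-7 family rows above 0, with 1 point for each library and a black line at the mean of the 2 libraries of a cell line. The pTDE points lie above the mTDE points for let-7a, let-7f, let-7g and let-7e, and mTDE replicate 1 is the highest point for let-7b, miR-98, let-7d and let-7c.

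To ask whether the level of each member differed between the cell lines, limma was fitted to log2(CPM + 1), and p-values were adjusted by the Benjamini-Hochberg method over all 326 rows tested. None of the 9 let-7 family rows had an adjusted p-value under 0.05, where 1.84% of all rows tested did. The called rows, 6 of 326, were all higher in mTDEs, and 0 rows were called higher in pTDEs. None of the family rows had an unadjusted p-value under 0.05, where 19.6% of all rows did. By direction, 10.1% of all rows passed this unadjusted threshold higher in pTDEs and 9.51% higher in mTDEs. With limma voom on the recovered reads, 0 rows of the family passed either threshold, where 4.91% of all rows passed the adjusted and 20.2% the unadjusted one. The log2 fold change, pTDEs over mTDEs, was 0.58 (standard error 0.31, adjusted p = 0.35 from limma) for cfa-let-7a-1 and 0.57 (standard error 0.30, adjusted p = 0.34) for let-7f. The 95% interval was -0.26 to 1.42 for cfa-let-7a-1 and -0.23 to 1.36 for let-7f, which leaves room for no difference and for a difference of more than 1 on the log2 scale. For let-7e the log2 fold change was 0.43 (interval -0.61 to 1.47) and for let-7g it was 0.35 (interval -0.49 to 1.19), with an adjusted p of 0.58 from limma for each.

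For the members that overlapped between the cell lines, the estimates lay near 0 or had wide intervals. The log2 fold change was 0.06 for let-7b (95% interval -1.56 to 1.67), 0.04 for let-7c (-1.58 to 1.65) and -0.06 for miR-98 (-1.13 to 1.01). For let-7d it was -0.82 with an interval from -4.40 to 2.75. Their adjusted p-values from limma ranged from 0.76 for let-7d to 0.99 for let-7c. The direction of these estimates depended on single libraries. Without mTDE replicate 1 the log2 fold change was 0.82 for let-7b, 0.47 for let-7c, 1.02 for let-7d and 0.19 for miR-98, and without mTDE replicate 2 it was -0.70, -0.40, -2.66 and -0.32 in the same order. Leaving out a pTDE library turned let-7b (-0.11 without replicate 2), let-7c (-0.0068 without replicate 1) and miR-98 (0.038 without replicate 1). For let-7a, let-7f, let-7g and let-7e, whose groups do not overlap, leaving out 1 library cannot turn the direction. The estimate of let-7e was 0.18 without pTDE replicate 2, 0.27 without mTDE replicate 2 and 0.68 without pTDE replicate 1, so that its size rests on single libraries.

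Of the 9 rows, 5 had no overlap between the cell lines with higher levels in pTDEs, which are the 2 let-7a rows, let-7f, let-7g and let-7e. Over all rows tested, 26.1% had no overlap and were higher in pTDEs. In the other direction the family had 0 such rows against 27.3% of all rows. The median log2 fold change was 0.35 over the 9 rows, 0.20 with let-7a counted once, and -0.03 over all 326 rows. Single libraries moved these medians and their order. Without mTDE replicate 2 the median of the 9 rows was 0.27, below the 0.46 of all rows, and without mTDE replicate 1 it was 0.58 against -0.58. Without pTDE replicate 2 it was 0.18 against -0.07. For the 73 rows that averaged 1000 CPM or more, the median was -0.29. These members are related in sequence and share their libraries, so that the counts describe them and are not independent observations. Median-ratio scaling moved the median of all rows tested to 0.22, and on that scale the log2 fold change was 0.82 for cfa-let-7a-1, 0.81 for let-7f and 0.18 for miR-98.

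**Figure D2:**
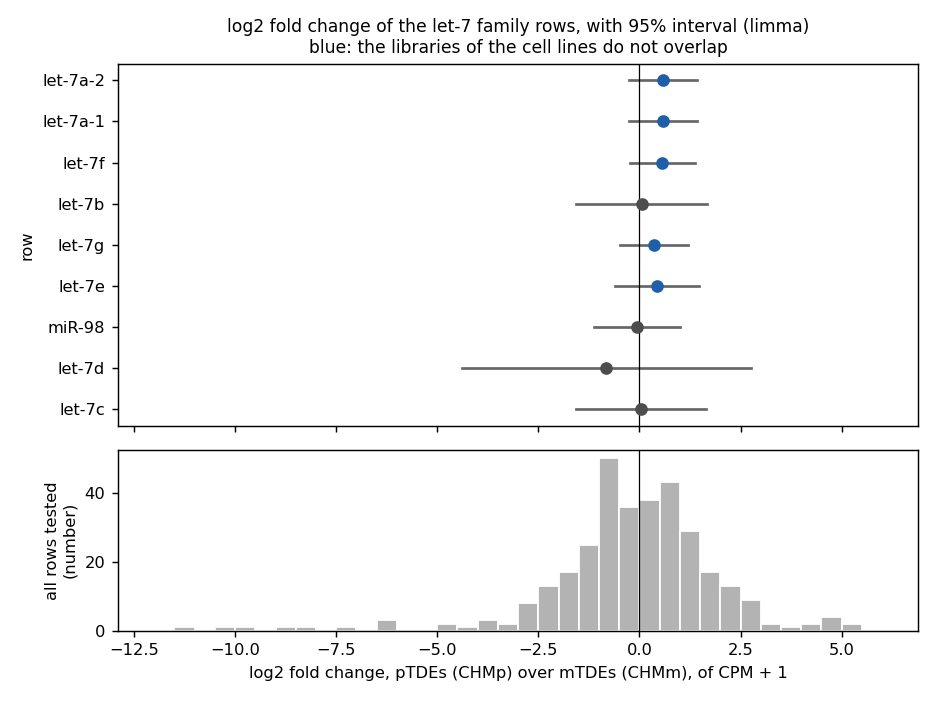
Top, log2 fold change of CPM + 1 (pTDEs over mTDEs, horizontal axis) of each let-7 family row with its 95% interval from limma, in blue where the libraries of the cell lines do not overlap. Bottom, number of all 326 rows tested at each log2 fold change; every interval of the family includes 0, and the interval of let-7d, from -4.40 to 2.75, is the widest.

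The composition of the family is unaffected by a linear factor applied to the recovered CPM of a library, but it does depend on the constant of each library by which the deposited scores were turned into CPM. The part of let-7a in the family sum was 63.8% and 67.3% for pTDE replicates 1 and 2 and 56.1% and 65.2% for those of mTDEs, a mean of 65.6% ± 2.50 against 60.7% ± 6.43 (SD, n = 2). let-7f made up 17.6% and 14.3% in pTDEs and 13.6% and 16.0% in mTDEs. let-7b, which was 9.43% and 10.4% of the family in pTDEs, was 20.5% in mTDE replicate 1 and 8.42% in mTDE replicate 2. let-7g contributed 5.55% to 7.90% and let-7e 1.23% to 1.51% over the 4 libraries. For these 5 miRNAs the shares in the cell lines overlapped.

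The family was ordered in the same way in both pTDE libraries and in mTDE replicate 2, from let-7a through let-7f, let-7b, let-7g, let-7e, miR-98 and let-7d to let-7c. In mTDE replicate 1, let-7b stood above let-7f and let-7d above miR-98, while the other places were kept. Neighbors in this order that overlapped in level across the libraries of a cell line were let-7f with let-7b, miR-98 with let-7d, and let-7d with let-7c, in mTDEs alone. miR-98 was the member whose share of the family was higher in both mTDE libraries, at 1.11% and 0.914%, than in both pTDE libraries, at 0.698% and 0.699%. Scaled to the family sum, the log2 fold change of miR-98 was -0.53 and its adjusted p 0.51 from limma. On that scale let-7a-1 (0.12) and let-7f (0.10) were above 0 and let-7g (-0.11), let-7e (-0.03), let-7b (-0.41), let-7c (-0.43) and let-7d (-1.29) below, and none of them passed the test.

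Ratios between members were steadier for some pairs than for others. let-7a was 3.63 and 4.72 times let-7f in pTDEs and 4.12 and 4.09 times in mTDEs, so that the highest library was at 1.30 times the lowest. let-7f was 2.52 and 2.57 times let-7g in pTDEs and 2.37 and 2.02 times in mTDEs. let-7b and let-7c, which were both high in mTDE replicate 1, kept a ratio of 77.1 to 121 over the 4 libraries. Reads of such closely related sequences can be counted on more than 1 row. let-7c stood at 0.136% to 0.303% of let-7a, which is the upper limit of the share of let-7a reads that could have been counted on its row. let-7d stood at 0.329% and 0.174% of let-7a in pTDEs and at 2.26% and 0.177% in mTDEs.

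**Figure D3:**
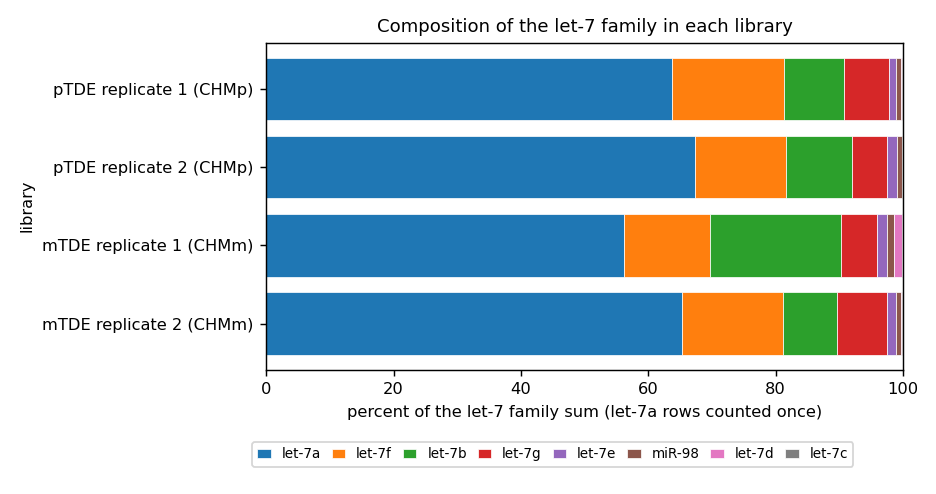
Share of each member in the let-7 family sum of a library, in percent, with let-7a counted once and 1 bar for each library. let-7a is the largest part of every bar, from 56.1% to 67.3%, and the let-7b part of mTDE replicate 1, 20.5%, is larger than in the other bars (8.42% to 10.4%).

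In mTDEs the replicates were close for let-7a, let-7f and let-7g and far apart for let-7b and let-7d. The log2 difference between the mTDE replicates was 0.02 for cfa-let-7a-1, 0.003 for let-7f and -0.23 for let-7g, against a median size of 0.91 over all rows tested and 0.63 over rows that averaged 1000 CPM or more. It was 0.33 for let-7e, 0.51 for miR-98 and 0.86 for let-7c. let-7b was 2.86 times and let-7d 12.9 times as high in mTDE replicate 1 as in replicate 2. Of all rows tested, 63.8% had a smaller difference than let-7b and 89.9% a smaller difference than let-7d. In pTDEs each member except let-7d differed by less than the median size over all rows, 0.64 on the log2 scale, and let-7d differed by 0.64 as well. let-7d rested on about 5763 reads in mTDE replicate 1 and 301 in replicate 2. The 95% Wilson interval was 1625 to 1711 CPM in replicate 1 and 115 to 145 CPM in replicate 2, so that the gap is larger than counting error.

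**Figure D4:**
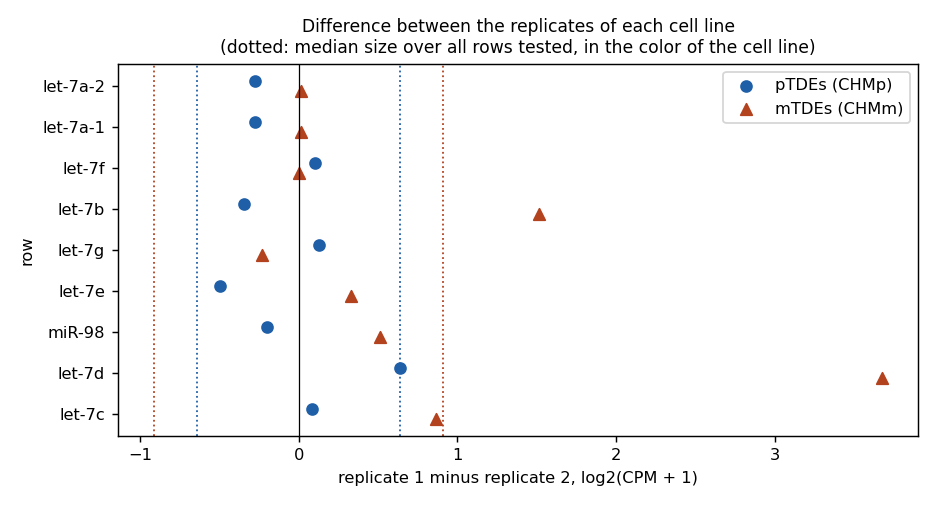
Difference between replicate 1 and replicate 2 in log2(CPM + 1) for each let-7 family row, with circles for pTDEs and triangles for mTDEs. Dotted lines mark the median size over all rows tested, 0.64 in pTDEs and 0.91 in mTDEs; the triangles of let-7d and let-7b, at 3.68 and 1.52, lie beyond it.

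let-7 genes often lie beside other miRNA genes, and all 10 rows matched a gene by name in the RefSeq annotation of the assembly UU_Cfam_GSD_1.0. In it, let-7a-1 neighbors let-7b, and let-7f neighbors let-7d. let-7e lies with miR-125a and miR-99b, let-7c with miR-99a-1 and miR-125b-2, and let-7a-2 with miR-99a-2 and miR-125b-1. miR-98 lies within HUWE1, a ubiquitin ligase gene, let-7g within WDR82, let-7a-2 within BLID and let-7c within 2 long noncoding RNA genes. Within 60 kb of let-7g lies miR-135a-1, which was not in the list of neighbor rows examined, and no other miRNA gene starts within that distance of miR-98 or let-7j. The miR-99 and miR-125 rows (6 rows) are members of other seed families that are known to be transcribed with let-7 in many animals. None of the 6 rows passed the limma test at an adjusted p-value under 0.05, where 1.84% of all rows did, and 0 passed without adjustment, where 19.6% of all rows did. Their median log2 fold change was -0.43, against 0.35 over the let-7 family rows and -0.03 over all rows tested.

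miRNAs of neighboring genes did not hold a fixed ratio across the libraries. let-7b was 0.148 and 0.155 times let-7a-1 in pTDEs and 0.367 and 0.130 times in mTDE replicates 1 and 2. let-7f was 83.7 and 122 times let-7d in pTDEs, but 10.7 times in mTDE replicate 1 and 138 times in mTDE replicate 2. miR-99b was 0.875 and 1.30 times let-7e in pTDEs and 3.1 and 2.4 times in mTDEs, a ratio that was higher in both mTDE libraries. let-7a-2 was 9.30 and 5.21 times miR-99a in pTDEs and 3.45 and 2.85 times in mTDEs, higher in both pTDE libraries. The ratios to the other partners overlapped between the cell lines. let-7a-2 was 7.56 and 13.1 times miR-125b-1 in pTDEs and 3.02 and 9.93 times in mTDEs. miR-125a was 1.22 and 0.44 times let-7e in pTDEs and 1.79 and 0.55 times in mTDEs. For let-7c, the overlap held for its ratios to both miR-99a and miR-125b-2. cfa-mir-99a-1 and cfa-mir-99a-2 had the same values, 10738 and 23215 CPM in pTDEs and 21503 and 25710 CPM in mTDEs, so that the ratio rests on rows that cannot be told apart. The let-7a rows, which differ by under 1%, and the nearly equal rows cfa-mir-125b-1 and cfa-mir-125b-2 cannot be assigned to 1 gene either, and ratios with them are between mature miRNAs rather than between neighboring genes.

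The miR-125 rows had the same high library as let-7b, let-7c, let-7d and miR-98. cfa-mir-125b-1 was at 13209 and 9221 CPM in pTDEs and at 24508 and 7383 CPM in mTDE replicates 1 and 2, where replicate 1 was 3.32 times replicate 2. cfa-mir-125a was at 2345 and 1191 CPM in pTDEs and at 3381 and 822 CPM in mTDEs, where replicate 1 was 4.11 times replicate 2. In mTDEs cfa-mir-99b was 1.64 times and cfa-mir-99a-1 0.836 times as high in replicate 1 as in replicate 2. The replicates of mTDEs also differed in their mesenchymal and red blood cell miRNAs, given above, and the part of these in the let-7 values was not tested.

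**Figure D5:**
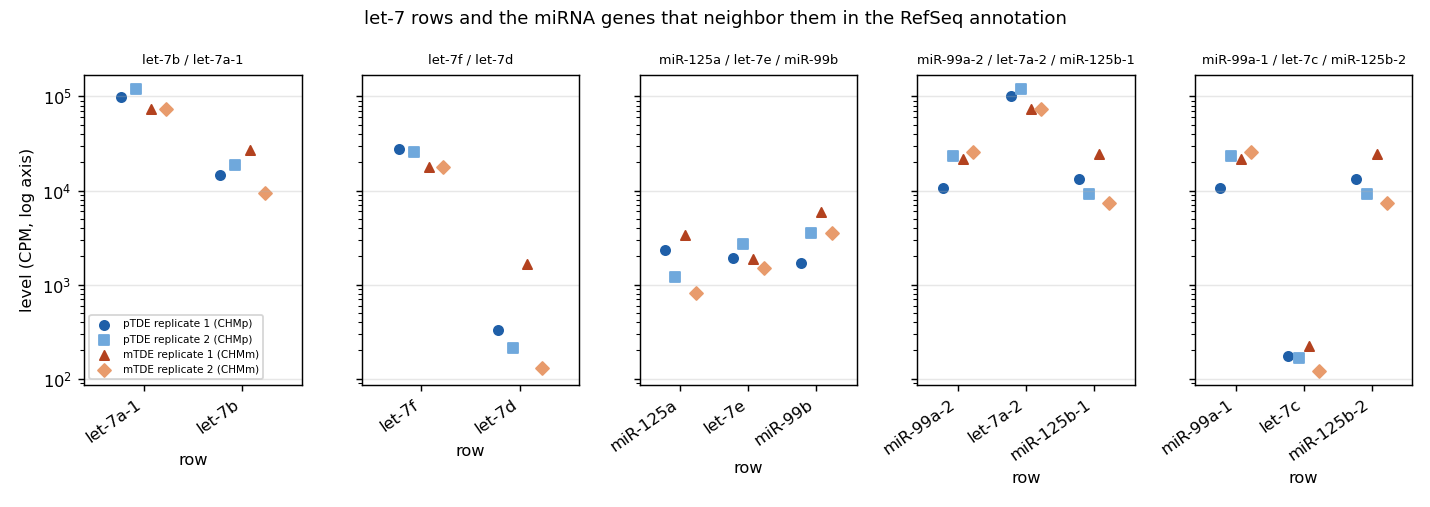
Level in CPM (log axis) of let-7 rows and the miRNA genes next to them in the RefSeq annotation, with 1 panel for each group of neighbors and 1 point for each library. let-7a-1 and let-7f hold nearly equal mTDE points while their neighbors let-7b and let-7d have mTDE replicate 1 at 26996 and 1667 CPM, above the other libraries.

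Rows with a profile like that of let-7a were ranked by the distance between their log2(CPM + 1) values over the 4 libraries, each row centered on its own mean, among the 141 rows that averaged 100 CPM or more. let-7f ranked 2, let-7e 4 and let-7g 7, with distances of 0.27, 0.31 and 0.41. miR-98 ranked 23, let-7c 31, let-7b 47 and let-7d 120, the last at a distance of 3.02. The closest rows outside the family were cfa-mir-874 (rank 1, distance 0.22), cfa-mir-196b (rank 3, distance 0.31) and cfa-mir-196a-1 (rank 5, distance 0.33). cfa-mir-874 was at 162 and 217 CPM in pTDEs and at 142 and 144 CPM in mTDEs. cfa-mir-196b was at 436 and 428 CPM in pTDEs and at 265 and 240 CPM in mTDEs, and cfa-mir-196a-1 at 655 and 879 CPM and at 393 and 457 CPM. These distances rest on 4 libraries that share their scaling, and they describe the values only.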

How the data were processed

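Small RNA of EVs from CHMp and CHMm cells was analysed, with 2 libraries per cell line, assigned from the sample titles. The paper names 2 sequencing platforms and 2 read lengths and does not say which library was run on which. The part of these in the differences between libraries was not tested. According to their methods, the authors trimmed reads with cutadapt, kept those within a length window around that of mature miRNAs, merged both read directions of a sample, and quantified miRBase and newly predicted miRNAs with miRDeep2 on the genome build CanFam3.1, with versions not given in the sources used here. Reads shorter than this window, and so shorter forms of let-7, are not in the values. Both reads of a fragment may count. The paper describes CPM values as the basis of its analysis. The deposited values were treated as a score, because they are whole numbers with the form of log2(CPM + 1) times a constant of the library. The deposited fold changes, average levels, likelihood ratios and p-values of the authors' own comparison, made with edgeR, were not used. Because the deposited values are not counts, the main test was made on log2 CPM, and voom on the recovered reads was an alternative.

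CPM were recovered as 2^(value/s) - 1, with s solved so that a library totals 1000000 (s = 495, 493, 487 and 426 for pTDE replicates 1 and 2 and mTDE replicates 1 and 2). 1 read was worth 0.159, 0.198, 0.289 and 0.429 CPM, the largest step of which values under 20 CPM are whole multiples. Python 3.11.15 (numpy 2.4.6, pandas 2.3.3, scipy 1.17.1) and R 4.3.3 with limma 3.58.1 were used. limma, with a trend, was fitted on log2(CPM + 1) to the 326 rows detected in both replicates of CHMp, of CHMm or of both. Its prior degrees of freedom were 2.40. The conversion and the fit were tested on simulated data. The family members and the gene lists were chosen with earlier results of these data known. Named rows are all family rows, the miR-99 and miR-125 rows as known neighbors, the marker lists, the most abundant other row and the 3 rows most like let-7a. A search for other miRNAs with the let-7 seed was not made here. Alternatives were other pseudocounts (0.1 and 5 CPM), row filters, scalings, voom, a replicate block, copies counted once and each library left out.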

Additional observations from a re-analysis of the deposited data

How the results depend on the processing

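No let-7 family row and no neighbor row passed an adjusted p-value of 0.05 under the alternatives run. Of all rows, 1.08% to 15.3% passed in these fits, except without mTDE replicate 1 or 2, where 0 rows of the table passed (73 and 77 at an unadjusted p-value under 0.05), so that those fits say nothing on stability. Among the alternative estimates for single rows, 111 kept their direction and 14 reversed it, with adjusted p-values from limma between 0.15 and 0.997. The lowest belongs to let-7d without mTDE replicate 2. A fit that lacks 1 library takes its residual spread from the other cell line and assumes that the lone library varies like it, which the mTDE replicates of let-7d did not. By direction, 0 rows were called higher in pTDEs in the main fit, with a pseudocount of 5 CPM or with a replicate block. The same held for the other row filters, for scaling to the family sum and with copies counted once. In these fits the lack of a family call in that direction was shared by all rows tested. Scaling to the family sum reversed let-7e (-0.033), let-7g (-0.11), let-7b (-0.41) and let-7c (-0.43). Median-ratio size factors reversed miR-98 (0.18). Taking the deposited values as CPM reversed miR-98 (0.11) and let-7d (0.0069). Over the 4 fits that lacked 1 library, the log2 fold change ranged from -0.70 to 0.82 for let-7b, from -0.40 to 0.47 for let-7c, from -2.66 to 1.02 for let-7d and from -0.32 to 0.19 for miR-98. The cause was not tested, apart from the scalings, which act by their construction.

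The family share of 16.8% in pTDEs and 12.2% in mTDEs became 27.8% and 19.5% with the let-7a rows summed, 24.8% and 16.4% without cfa-mir-21, 4.73% and 4.33% with the deposited values as CPM, and 20.2% and 14.4% with identical rows and let-7a also counted once in the total, an alternative chosen after seeing the data. Single libraries gave 15.6% to 17.9% (pTDEs) and 11.2% to 13.1% (mTDEs). The let-7a part of the family, 65.6% and 60.7%, became 79.2% and 75.4% with its rows summed and 17.5% and 17.1% with the deposited values as CPM. The mean was higher in pTDEs in both of these.

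The replicate number as a block left 0 family rows called. The labels do not say that a number marks a shared culture or run, and with 2 pairs the correlation of same-numbered deviations (0.15 over 326 rows) is too little to pair them. The depth limits let-7j, which lies under 3 reads.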
